A study of Mus musculus with 6 samples.

Results

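The 46 interferon-stimulated genes described here are transcripts that cells make when interferon reaches them, and they were followed in the ear skin of mice that lack Ufl1 in the epidermis. They were chosen by name from the deposited table of 54532 genes, and all 46 were found and passed the filter on low counts, among 17318 genes tested. Bulk RNA was sequenced from 6 libraries of whole ear skin, 3 control and 3 conditional knockout (cKO), all from mice aged 3 months. Control mice carried the genotype Ufl1f/+ or Ufl1f/f, so both groups carried floxed Ufl1, and the labels do not say which control had which genotype. The cKO mice were Ufl1f/f KRT14Cre/+, in which the promoter of keratin 14 drives Cre in basal keratinocytes, so that their descendants are deleted too. No control is labelled with Cre, so an effect of the transgene and an effect of the loss of Ufl1 cannot be told apart. UFL1 is an enzyme of ufmylation, the attachment of the ubiquitin-like protein UFM1 to target proteins. Whether the libraries are from separate animals is not stated, and p-values measure only the spread between these samples, which may be technical.

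Interferons are secreted proteins that warn neighbouring cells of infection or of misplaced nucleic acid. Type I interferons (alpha, beta, kappa) signal through the receptor IFNAR to a complex with STAT2 and IRF9 that binds the interferon-stimulated response element (ISRE). Type II interferon (gamma), made mostly by T cells and natural killer cells, signals through IFNGR to genes with a gamma-activated sequence (GAS). Many genes respond to both, but the guanylate-binding proteins and the immunity-related GTPases are known for strong responses to interferon gamma, and the oligoadenylate synthetases, Isg15 and Irf7 for responses to type I interferon. In skin, keratinocytes, resident immune cells and infiltrating lymphocytes can all make or answer interferon.

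Total counts per library ran from 17256339 to 20776539. Ufl1 itself lay between 46.1 and 57.9 CPM (counts scaled to a common library size and composition) in the controls and between 34.9 and 38.8 CPM in the cKO. Every cKO library was below every control, as in 4.81% of all genes tested. The log2 fold change of Ufl1 was -0.47 (SE 0.14; edgeR adjusted p = 0.778; DESeq2 adjusted p = 0.558). Markers of keratinocytes, the tissue's main epithelial cell, were abundant in all libraries, with a summed level of 6087 to 14062 CPM. In whole tissue, a larger number of cells of a type and more RNA per cell cannot be told apart. Control 2 and cKO 3 stood apart in the genes described here, at the low and the high end, and results are given with and without them.

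The promoters of 35 of the 46 genes were in the RefSeq table used here (assembly GRCm38.p6), as windows from 250 bases before to 50 bases after the annotated start. The ISRE core was searched on both strands as GAAA, any 2 bases and GAAA again, and the GAS as TTCNNNGAA, which reads the same on both strands. The ISRE core was present for 20 of the 35 genes (57.1%), against 3.99% of the 27025 genes in the table. A GAS was present for 10 of 35 (28.6%), against 9.55% of all genes, and both motifs for 7 of 35 (20%), against 0.54% of all genes. Shown are the 110 bases before the start of 6 genes that differ in how they were spread over the cKO libraries, chosen after their values were seen. Capitals mark the 2 motifs, and the strand is that of the gene. Oas1a (chr5:120907526-120907635, minus strand), Oas3 (chr5:120777660-120777769, minus) and Isg15 (chr4:156200819-156200928, minus) were high in cKO 1 and cKO 3. Igtp (chr11:58199446-58199555, plus), Irgm2 (chr11:58214867-58214976, plus) and Gbp2 (chr3:142620553-142620662, plus) were high in cKO 3.
Oas1a: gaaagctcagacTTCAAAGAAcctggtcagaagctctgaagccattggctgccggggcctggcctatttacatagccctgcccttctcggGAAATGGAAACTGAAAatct
Oas3: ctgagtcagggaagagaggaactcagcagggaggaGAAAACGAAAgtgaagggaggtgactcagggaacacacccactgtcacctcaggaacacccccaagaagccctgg
Isg15: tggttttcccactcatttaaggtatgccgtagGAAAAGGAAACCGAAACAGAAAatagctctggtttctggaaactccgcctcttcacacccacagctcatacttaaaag
Igtp: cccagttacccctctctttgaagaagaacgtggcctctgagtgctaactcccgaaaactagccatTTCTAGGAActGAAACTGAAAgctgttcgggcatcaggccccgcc
Irgm2: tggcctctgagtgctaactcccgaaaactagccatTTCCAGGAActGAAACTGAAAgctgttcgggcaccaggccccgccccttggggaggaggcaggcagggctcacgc
Gbp2: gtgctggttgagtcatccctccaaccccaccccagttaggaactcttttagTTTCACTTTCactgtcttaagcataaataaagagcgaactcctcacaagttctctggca

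Isg15 carried 3 overlapping copies of the ISRE core, beginning 78, 72 and 66 bases before the start, and Oas1a carried 2 overlapping copies at 20 and 14 bases. In Igtp and Irgm2, neighbouring genes of 1 family, a GAS stood directly before an ISRE core, at 45 and 34 bases in Igtp and at 75 and 64 bases in Irgm2. Aligned without gaps, these stretches of Igtp and Irgm2 were identical at 78 of 80 bases. By gene group, the ISRE core was found for 4 of 4 guanylate-binding proteins, 3 of 4 immunity-related GTPases, 3 of 5 oligoadenylate synthetases and 0 of 2 genes of the PARP and DTX3L group. In the same order, a GAS was found for 2 of 4, 2 of 4, 1 of 5 and 0 of 2. The ISRE core was also found for 3 of 3 nucleic acid sensors, 2 of 3 IFIT genes and 2 of 4 antiviral effectors. It was found for 1 of 2 genes of the Isg15 group, 1 of 4 transcription factors and 1 of 4 other members. A match describes the letters only, and no test was made of these shares.

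**Figure D1:**
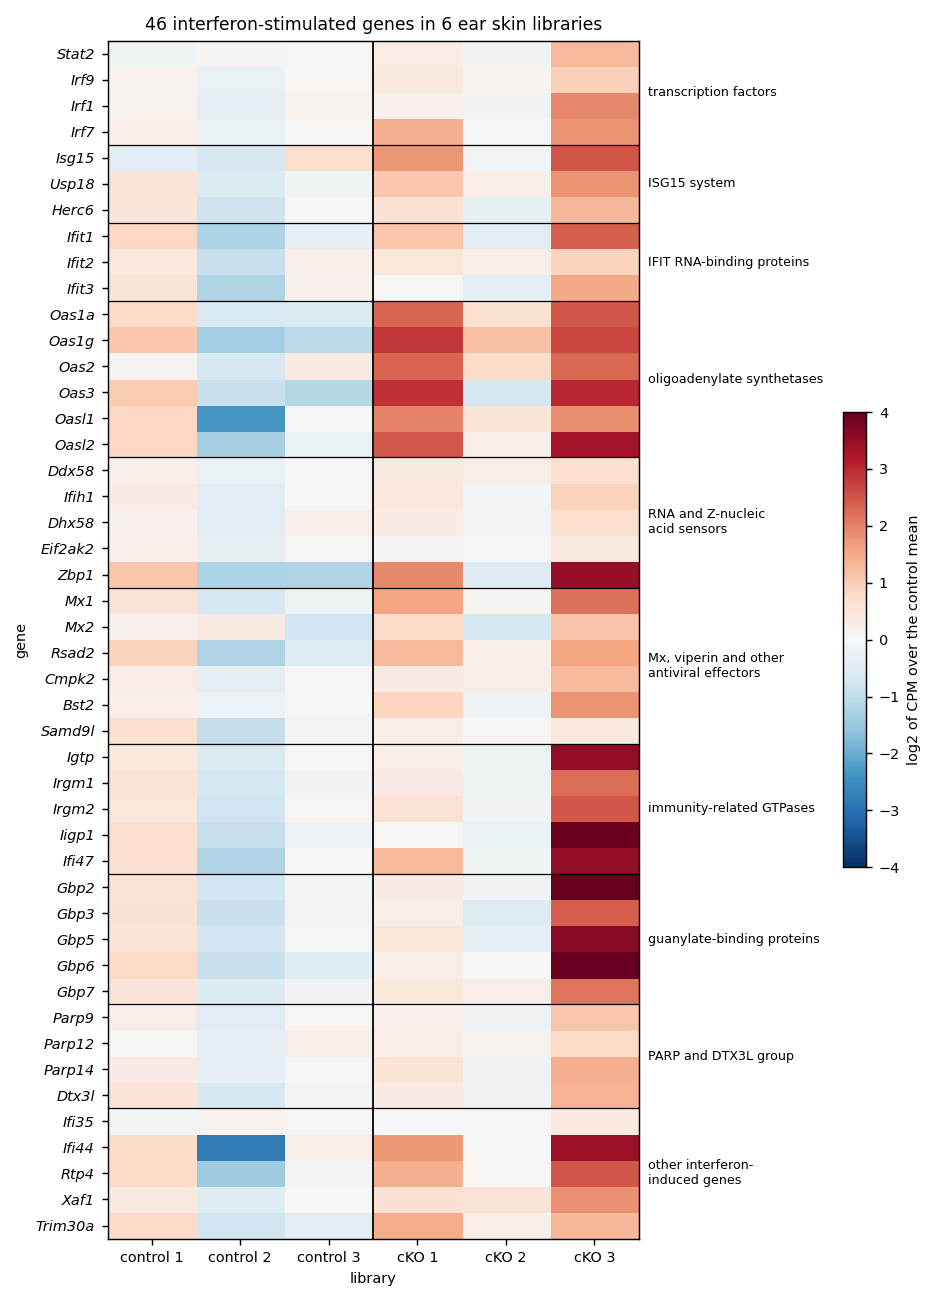
Heat map of the 46 genes (rows, in groups by role) in the 6 libraries (columns), coloured by log2 of CPM over the mean of the 3 controls. The cKO 3 column is above the controls for nearly all genes, the cKO 1 column most strongly for the oligoadenylate synthetases, and the cKO 2 column is close to the controls.

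The list as a whole had higher values in the cKO, mostly through cKO 3 and, for part of the genes, cKO 1. Summed over the 46 genes, the level was 683, 379.8 and 530.4 CPM in controls 1 to 3 and 788, 527 and 2036 CPM in cKO 1 to 3, so that cKO 2 lay within the range of the controls. All 46 genes had a log2 fold change above 0 in the edgeR fit, as did 47.8% of all genes tested, and 28 were at 1 or more, against 2.06%. The median of the list was 1.18, beside -0.012 for all genes. None of the 46 passed edgeR's quasi-likelihood test at an adjusted p under 0.05, where the share of all genes called was 0.0115% higher and 0.00577% lower, and their adjusted p-values ran from 0.612 to 0.997. At an unadjusted p under 0.05 the same test gave 25 genes higher and 0 lower, against 3.38% and 1.95% of all genes. DESeq2 called 2 of the 42 members to which it gave an adjusted p higher (4.76%, against 0.347% of all genes), Oas2 and Oas1a, and 0 lower (against 0.121%). The limma-voom test called 0 members, and no gene of the table, with 11 members higher at an unadjusted p under 0.05 (23.9%, against 3.26% of all genes).

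The spread between ears was large next to the difference between groups. In 41 of the 46 genes cKO 3 was the highest of the 6 libraries, as it was in 13% of all genes tested. The highest library was cKO 1 for 4 genes (against 13.8%), control 1 for 1 gene (against 23.8%), and control 2, control 3 or cKO 2 for 0 (against 27.1%, 12.5% and 9.86%). Further, in 42 genes the order was cKO 3, cKO 1, cKO 2 among the knockouts, against 19.5% of all genes. Control 2 was the lowest library for 42 genes (against 26.9%), control 1 and control 3 for 2 each (against 25.5% and 12%), and a cKO library for 0 (against 12.5%, 11.1% and 12% for cKO 1 to 3). All 3 cKO libraries lay above all 3 controls for 4 genes (8.7%, against 5.73% of all genes): Oas1g, Oas2, Ddx58 and Xaf1. No member had all cKO libraries below all controls, as 4.81% of all genes did. For the 4 genes above, a two-sided exact permutation test over the libraries gave p = 0.1, the smallest that 3 against 3 allow. Taken singly, cKO 3 exceeded every control for 45 genes, cKO 1 for 32 and cKO 2 for 4, where the shares over all genes were 19.9%, 21.6% and 17.6%. The SD of log2 CPM was larger among the cKO than among the controls for 38 genes, against 29% of all genes.

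Without cKO 3 the median log2 fold change of the list was 0.28, beside -0.0068 for all genes, with 42 genes above 0 (against 49% of all genes). Of the members 10 were then at 1 or more, next to 28 with all 6 libraries. The share of all genes at 1 or more was not counted in this fit. At an unadjusted p under 0.05 in edgeR, 4 members were then higher, against 2.17% of all genes. Without control 2 the median was 0.95, 45 genes were above 0 (against 49.7%) and 3 were at an unadjusted p under 0.05 (against 4.38%), and without control 3 there were 46 above 0 (against 48.7%) and 5 at that p (against 2.45%). Leaving out cKO 2 gave a median of 1.52, 46 genes above 0 (against 46.3%) and 37 at that p (against 3.84%). Without control 1 and without cKO 1 all 46 were above 0 (against 50% and 47.5%), and 19 and 17 were at that p (against 5.24% and 1.86%). By adjusted p, edgeR called 0 members in each of these 6 fits, where it called 0% of all genes higher in 5 fits and 0.0115% without control 2. With both control 2 and cKO 3 left out the median was 0.15, beside 0.00016 for all genes, and 30 of the 46 were above 0. In that edgeR fit 1 member was higher at an unadjusted p under 0.05 (2.17%, against 3.17% of all genes). The share of all genes above 0 was not counted there. Control 2 also differed in cell markers: it had the highest sum of keratinocyte markers (14062 CPM, against 6087 to 12469 in the others) and the lowest sums of fibroblast markers (7150.4 CPM, against 11701 to 18903) and macrophage markers (358 CPM, against 600 to 901). The part of these cells in the low values of control 2 was not tested.

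**Figure D2:**
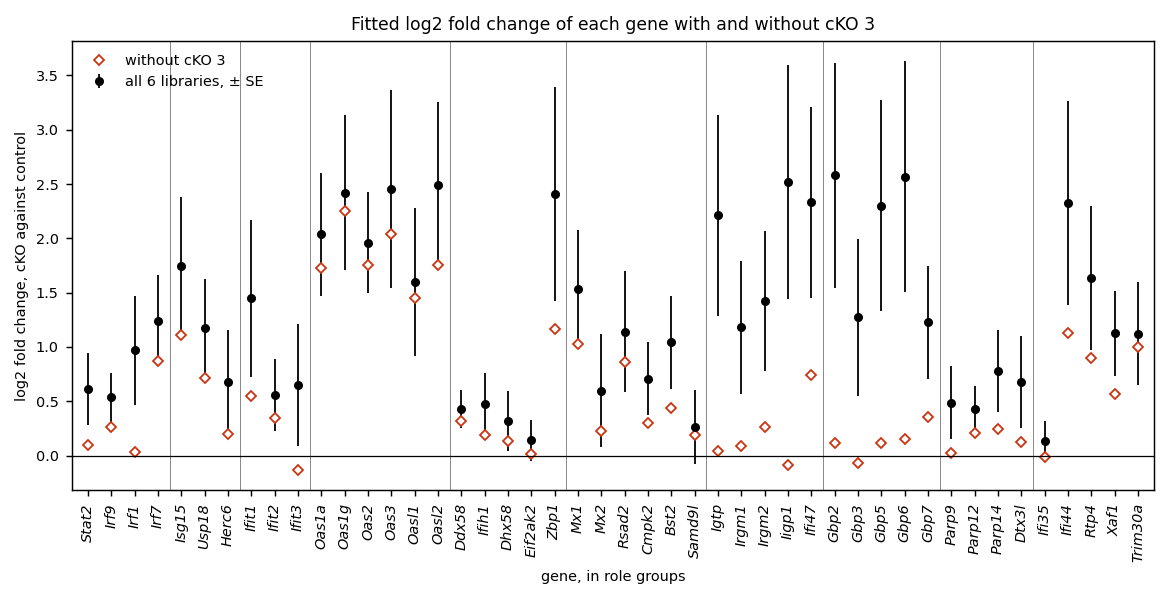
Fitted log2 fold change of cKO against control for each gene, in role groups, with all 6 libraries (filled points, bars ± SE) and without cKO 3 (open diamonds). The guanylate-binding proteins and immunity-related GTPases lie between 1.18 and 2.58 with all libraries and between -0.087 and 0.74 without cKO 3, while the oligoadenylate synthetases stay between 1.45 and 2.25 without it.

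The oligoadenylate synthetases were high in both cKO 1 and cKO 3. These enzymes sense double-stranded RNA, and the active ones make a short oligonucleotide that switches on the RNA-degrading enzyme RNase L. By edgeR 6 of 6 were higher at an unadjusted p under 0.05 (against 3.38% of all genes tested), and the median log2 fold change was 2.23. Oas2 (chromosome 5, 120730333 to 120749853) was at 2.27, 1.34 and 2.69 CPM in the controls and at 10.6, 3.55 and 10.4 CPM in the cKO, each in the order 1 to 3. The groups did not overlap, although cKO 2 lay far closer to the controls than to its own group. The group means were 2.10 ± 0.692 and 8.19 ± 4.02 CPM (SD, n = 3 each), and the log2 fold change was 1.96 (SE 0.47; edgeR unadjusted p = 0.00300, adjusted p = 0.612; DESeq2 adjusted p = 0.00771). Oas1a (chromosome 5, 120896256 to 120907521) was at 3.34, 1.29 and 1.32 CPM in the controls and at 10.03, 3.05 and 11.2 CPM in the cKO. Here cKO 2 fell just below control 1, and the log2 fold change was 2.04 (SE 0.57; edgeR adjusted p = 0.727; DESeq2 adjusted p = 0.0322). Oas1g, a close paralog of Oas1a whose reads may be shared with it, was at 0.835, 0.155 and 0.189 CPM in the controls and at 2.79, 0.888 and 2.51 CPM in the cKO. Its groups did not overlap, but in the controls these levels are 14, 3 and 4 counts. The log2 fold change of Oas1g was 2.42 (SE 0.71; edgeR adjusted p = 0.778).

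In the 3 remaining members of the family cKO 1 and cKO 3 were again the highest libraries. Oas3, the longest of the family, was at 2.68, 0.722 and 0.614 CPM in the controls and at 10.1, 0.833 and 10.7 CPM in the cKO, so that cKO 2 lay among the controls. Oasl2, a synthetase-like protein with ubiquitin-like domains, was at 7.04, 1.598 and 3.31 CPM in the controls and at 21.9, 4.83 and 40.1 CPM in the cKO. Oasl1, which restrains translation of Irf7, was at 1.85, 0.206 and 1.09 CPM in the controls and at 4.18, 1.499 and 3.77 CPM in the cKO. The log2 fold changes were 2.45 (SE 0.91) for Oas3, 2.49 (SE 0.77) for Oasl2 and 1.60 (SE 0.68) for Oasl1. Without cKO 3 the 6 genes had a median of 1.75 and without cKO 1 of 1.99. The calls made by DESeq2 were not stable to single libraries. It called 0 members of the list higher without cKO 1, without cKO 3 or without control 2 (against 0.0995%, 0.0929% and 0.264% of all genes fitted), and 1 (Oas2) without control 3 (against 0.11%). Without control 1 it called 7 (15.2%, against 0.622%), of which 4 were Oas genes (Oas1a, Oas1g, Oas2 and Oas3), and the others Mx1, Rsad2 and Trim30a. Leaving out cKO 2 gave 9 calls (19.6%, against 0.421%): Irf7, Isg15, Oas1a, Oas2, Oas3, Oasl2, Mx1, Bst2 and Rtp4. In the authors' deposited table, members with an adjusted p under 0.05 were 2 (4.35%, against 0.335% of all genes tested), of which Oas2 had 0.00800 and Oas1a 0.0334.

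**Figure D3:**
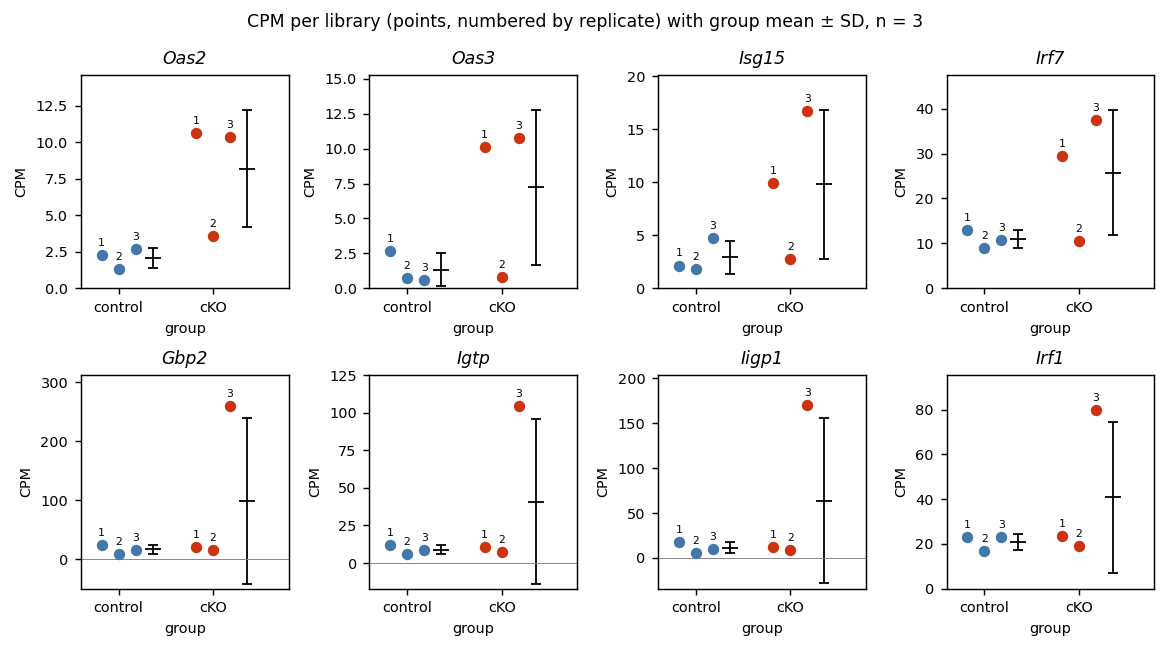
CPM of 8 genes in each library (points numbered by replicate, controls blue, cKO red) with the group mean ± SD (black bar, n = 3). Oas2, Oas3, Isg15 and Irf7 are high in cKO 1 and cKO 3, whereas Gbp2, Igtp, Iigp1 and Irf1 are high in cKO 3 and near the controls in cKO 1 and cKO 2.

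The guanylate-binding proteins, GTPases that coat and disrupt vacuoles holding microbes, were high in 1 ear. Gbp2 (chromosome 3, 142620602 to 142638008) was at 24.7, 9.64 and 15.4 CPM in the controls and at 20.8, 15.0 and 260.4 CPM in the cKO. Both cKO 1 and cKO 2 lay inside the control range, and cKO 3 was 15.7-fold above the control mean. Per transcript length Gbp2 became the most abundant of the 46 genes in cKO 3, at 103 FPKM (fragments scaled by transcript length and library size), next to a control mean of 6.53 FPKM. Gbp5, which also promotes inflammasome assembly, was at 6.50, 2.68 and 4.39 CPM in the controls and at 6.35, 3.44 and 56.9 CPM in the cKO. Gbp6 was at 3.46, 1.08 and 1.42 CPM in the controls and at 2.40, 1.998 and 30.6 CPM in the cKO. The same single high library was seen for Gbp3 (60.3 CPM in cKO 3 and 6.13 to 17.2 CPM in the other 5) and Gbp7 (53.1 CPM and 8.09 to 16.9 CPM). The fitted log2 fold changes were 2.58 (SE 1.03) for Gbp2, 2.30 (SE 0.97) for Gbp5 and 2.57 (SE 1.06) for Gbp6, with edgeR adjusted p-values of 0.897, 0.917 and 0.917. Without cKO 3 the 3 were at 0.11, 0.12 and 0.16. DESeq2 gave no p-value for Gbp2 and Gbp6. Of these 5 genes 4, Gbp5, Gbp7, Gbp3 and Gbp2, lie side by side on chromosome 3 (142493978 to 142638008), and sequence shared within the family makes the split of reads between them uncertain.

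The immunity-related GTPases, which act on pathogen vacuoles and in autophagy, had the same distribution. Iigp1, an effector of this family, was at 18.1, 5.93 and 9.498 CPM in the controls and at 11.8, 9.21 and 169.9 CPM in the cKO. Igtp, also known as Irgm3, was at 12.0, 5.93 and 8.65 CPM in the controls and at 10.6, 7.66 and 104 CPM in the cKO. Ifi47 was at 7.93, 2.22 and 5.01 CPM in the controls and at 12.4, 4.50 and 59.0 CPM in the cKO. For Iigp1 and Igtp only cKO 3 left the control range, whereas Ifi47 also exceeded the controls in cKO 1. Of the regulatory members, Irgm1 was at 11.7 to 27.9 CPM in the 5 other libraries and at 87.7 CPM in cKO 3, and Irgm2 at 8.09 to 21.01 CPM and 79.5 CPM. Igtp and Irgm2 overlap in the annotation on the same strand, so their counts may not be independent, and Ifi47 lies within the annotated Olfr56. Fitted log2 fold changes were 2.52 (SE 1.08) for Iigp1, 2.21 (SE 0.93) for Igtp, 2.33 (SE 0.88) for Ifi47, 1.42 (SE 0.65) for Irgm2 and 1.18 (SE 0.61) for Irgm1. The edgeR adjusted p-values of these 5 genes ran from 0.860 to 0.970. Without cKO 3 the log2 fold change was -0.087 for Iigp1, 0.045 for Igtp and 0.74 for Ifi47. DESeq2 gave no p-value for Iigp1 and Igtp.

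**Figure D4:**
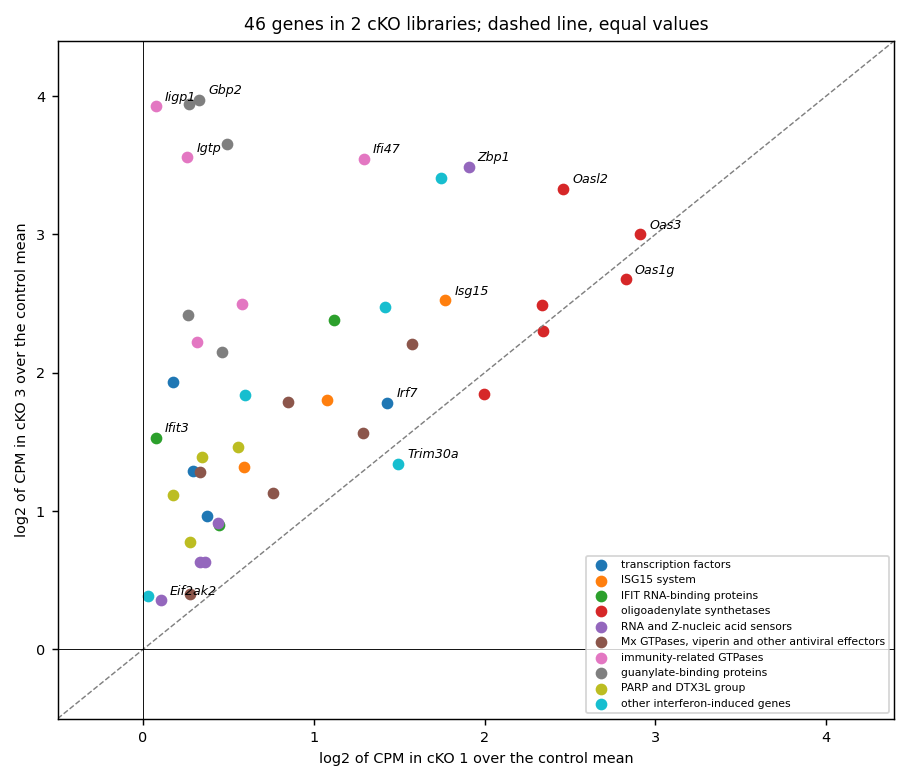
Each point is 1 of the 46 genes, coloured by role: log2 of CPM over the control mean in cKO 1 (horizontal) and in cKO 3 (vertical), with a dashed line of equal values. The oligoadenylate synthetases lie far from 0 on both axes and near the line, except Oasl2, which lies above it (ratio of cKO 1 to cKO 3 of 0.547). The GTPases lie far above the line, with a median ratio of cKO 1 to cKO 3 of 0.210 (immunity-related) and 0.112 (guanylate-binding).

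The libraries cKO 1 and cKO 3 thus differed in which members were high. For the 10 GTPase genes of these 2 families, cKO 3 was 3.13 to 10.5 times the next highest library. A ratio of at least 2 was reached by all 10 and by 8 of the other 36, whose highest ratio was 3.39. Together these were 18 of 46 genes (39.1%, against 0.785% of all genes tested). Of the 10 GTPase genes 2 were above every control in cKO 1, as were 30 of the other 36, against 21.6% of all genes tested. The CPM in cKO 1 divided by that in cKO 3 had a median of 0.983 for the oligoadenylate synthetases, 0.604 for the Isg15 group, 0.210 for the immunity-related GTPases and 0.112 for the guanylate-binding proteins. Within the oligoadenylate synthetases it ran from 0.547 for Oasl2 (exact binomial 95% interval 0.483 to 0.618), which was lower in cKO 1, to 1.11 for Oas1g (0.731 to 1.68), with Oas2 at 1.03 (0.837 to 1.26) and Oas3 at 0.939 (0.765 to 1.15). For Gbp2 it was 0.0798 (0.0717 to 0.0887), and for Iigp1 0.0692 (0.0599 to 0.0796). These intervals cover counting error only and compare 2 libraries, not conditions. The 2 GTPase groups were put together after their values were seen, and with 1 library of each kind no test over samples could be made. The T cell markers, given further on, summed to 83.4 CPM in cKO 3 and 41.5 CPM in cKO 1, and the neutrophil markers to 15.7 and 65.4 CPM. Of the 10 T cell markers, Cd3e, Cd3g and Cd3d were lower than in every control in cKO 1 and also in cKO 2. The list was mixed, as 4 others (Cd8a, Cd4, Trac and Trbc2) were above every control in cKO 1. The part of T cells and neutrophils in these ratios was not tested.

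Transcription factors of the list also differed in the libraries in which they were high. Irf7, the factor that amplifies type I interferon production, was at 13.0, 9.02 and 10.7 CPM in the controls and at 29.4, 10.4 and 37.5 CPM in the cKO. Irf1, a factor induced by interferon gamma through a GAS, was at 23.1, 16.7 and 22.8 CPM in the controls and at 23.5, 19.1 and 79.6 CPM in the cKO. Irf7 was high in cKO 1 and cKO 3 and Irf1 in cKO 3 alone. Of the promoter windows, neither motif was found for Irf7 or Irf9, a GAS was found in 1 of the 2 windows of Irf1, and an ISRE core was found for Stat2. Irf9, the DNA-binding subunit of the type I complex, was at 34.4, 25.9 and 32.7 CPM in the controls and at 40.2, 34.3 and 60.4 CPM in the cKO. Stat2, its partner, lay between 27.6 and 38.2 CPM in 5 libraries and at 76.6 CPM in cKO 3. The log2 fold changes were 1.24 (SE 0.42) for Irf7, 0.97 (SE 0.50) for Irf1, 0.54 (SE 0.23) for Irf9 and 0.61 (SE 0.33) for Stat2, with edgeR adjusted p-values between 0.849 and 0.974. Irf7 and Irf9 overlap the ends of Phrf1 and Rnf31 by 45 and 123 bases, and nothing in the labels says whether counting used strand.

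Isg15 encodes a ubiquitin-like protein that, like UFM1, is attached to other proteins by its own enzymes. It was at 2.15, 1.86 and 4.73 CPM in the controls and at 9.92, 2.72 and 16.8 CPM in the cKO, with cKO 2 below control 3. Usp18, the protease that removes ISG15 and dampens IFNAR signalling, was at 4.24, 2.06 and 2.65 CPM in the controls and at 6.30, 3.44 and 10.4 CPM in the cKO. Herc6, the mouse ligase for ISG15, was at 5.73, 2.27 and 3.97 CPM in the controls and at 6.02, 3.11 and 9.95 CPM in the cKO. All 3 were highest in cKO 3 and next in cKO 1, by a small margin over control 1 for Herc6. Log2 fold changes were 1.74 (SE 0.64), 1.18 (SE 0.45) and 0.68 (SE 0.48) for Isg15, Usp18 and Herc6, and edgeR's adjusted p-values were 0.857, 0.860 and 0.995.

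The IFIT proteins, which bind viral RNA and block its translation, varied widely among the controls. Ifit1 was at 8.47, 2.01 and 3.78 CPM in the controls and at 10.3, 3.55 and 24.8 CPM in the cKO. Ifit2 was at 24.5, 9.85 and 21.5 CPM in the controls and at 25.3, 22.0 and 34.7 CPM in the cKO. Ifit3 was at 21.2, 6.44 and 16.7 CPM in the controls and at 15.5, 11.4 and 42.7 CPM in the cKO. Control 2 was the lowest library for all 3, and the groups overlapped for each. Their log2 fold changes were 1.45 (SE 0.72), 0.56 (SE 0.33) and 0.65 (SE 0.56), and without cKO 3 that of Ifit3 was -0.13.

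Sensors of foreign nucleic acid showed small differences, with 1 exception. Ddx58, which encodes the RNA sensor RIG-I, was at 29.8, 21.6 and 26.5 CPM in the controls and at 33.3, 31.2 and 40.2 CPM in the cKO. The groups did not overlap, and the log2 fold change was 0.43 (SE 0.17; edgeR unadjusted p = 0.0368, adjusted p = 0.896). Ifih1, the sensor MDA5, was at 25.6, 15.2 and 20.2 CPM in the controls and at 27.5, 18.9 and 38.3 CPM in the cKO. Zbp1, a sensor of Z-form nucleic acid that can start cell death, was at 5.85, 1.13 and 1.18 CPM in the controls and at 10.2, 1.89 and 30.5 CPM in the cKO, a log2 fold change of 2.41 (SE 0.99). That gene had the widest range of the 5, and cKO 2 lay below control 1. The kinase PKR, encoded by Eif2ak2, was at 24.8, 17.4 and 22.3 CPM in the controls and at 23.1, 20.4 and 27.5 CPM in the cKO, a log2 fold change of 0.14 (SE 0.19). Dhx58, the regulator LGP2, was at 0.32 (SE 0.28) and overlaps an antisense transcript, Dhx58os, that had more counts than the gene itself (1212 and 747 over all libraries).

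Antiviral effectors followed the order of the libraries in most cases. Mx1, a dynamin-like GTPase, was at 3.94, 1.70 and 2.27 CPM in the controls and at 7.86, 2.83 and 12.2 CPM in the cKO. Bst2, the virion-tethering protein tetherin, was at 17.3, 12.2 and 13.9 CPM in the controls and at 26.1, 13.2 and 50.1 CPM in the cKO. Cmpk2, a mitochondrial nucleotide kinase, was at 7.10, 4.38 and 5.91 CPM in the controls and at 7.30, 6.94 and 14.1 CPM in the cKO. Each was highest in cKO 3, while cKO 2 lay within the controls for all 3. Their log2 fold changes were 1.54 (SE 0.54), 1.04 (SE 0.43) and 0.71 (SE 0.34), with edgeR adjusted p-values of 0.857, 0.907 and 0.949. For Rsad2, which encodes viperin and neighbours Cmpk2 on chromosome 12, the log2 fold change was 1.14 (SE 0.56), and for Mx2 it was 0.60 (SE 0.52). Samd9l, a growth-restraining antiviral factor, was the 1 gene of the list that was highest in a control, at 54.9 CPM in control 1 and 46.8 CPM in cKO 3. Its log2 fold change was 0.26 (SE 0.34), and it was -0.052 without control 2. Per length, Bst2 was the most abundant member in the controls, with a mean of 15.9 FPKM, while the median over the 46 genes was 2.38 FPKM in the controls and 8.49 FPKM in cKO 3.

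The ADP-ribosyltransferases and ubiquitin ligase of the PARP and DTX3L group modify proteins in interferon-treated cells. For 4 of 4 genes of this group cKO 3 was the highest library, against 13% of all genes tested. Parp14 was at 29.8, 19.0 and 22.5 CPM in the controls and at 34.9, 21.5 and 65.7 CPM in the cKO. Parp12 was at 38.9, 29.6 and 43.8 CPM in the controls and at 45.4, 41.4 and 64.2 CPM in the cKO. Dtx3l was at 24.8, 11.1 and 16.1 CPM in the controls and at 22.0, 15.7 and 45.4 CPM in the cKO. For all 3 the cKO 2 value lay within the control range. Parp9, the partner of Dtx3l, overlaps it by 682 bases on the other strand, and the 4 log2 fold changes ran from 0.42 (SE 0.21) for Parp12 to 0.78 (SE 0.38) for Parp14.

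Among the other members, Xaf1, a promoter of apoptosis, was at 10.7, 5.98 and 8.32 CPM in the controls and at 12.6, 12.0 and 29.9 CPM in the cKO. Its groups did not overlap, and the log2 fold change was 1.12 (SE 0.39; edgeR adjusted p = 0.857). Rtp4, a chaperone of receptor proteins whose annotation overlaps Masp1 by 525 bases, was at 8.41, 1.86 and 4.54 CPM in the controls and at 13.2, 5.22 and 27.4 CPM in the cKO. Ifi44 was at 1.19, 0.103 and 0.851 CPM in the controls and at 2.40, 0.722 and 7.59 CPM in the cKO. Both were highest in cKO 3 and next in cKO 1, with log2 fold changes of 1.64 (SE 0.67) and 2.33 (SE 0.94). Trim30a differed in that cKO 1 was the highest library, at 21.5 CPM, next to 19.4 CPM in cKO 3 and 4.38 to 13.0 CPM in the controls. Ifi35 varied least, between 14.7 and 17.5 CPM in 5 libraries and at 20.6 CPM in cKO 3, a log2 fold change of 0.13 (SE 0.18).

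Interferons themselves were at the limit of detection. Of the 11 interferon genes examined, 7 had 0 counts in every library, among them Ifnb1 and the 4 interferon alpha genes, which allows a level of up to 0.142 to 0.179 CPM per library (3 counts, counting error only). Ifng, the gene of interferon gamma, had 1, 0 and 1 counts in controls 1 to 3 and 0, 0 and 30 counts in cKO 1 to 3, the last equal to 1.57 CPM. The gene did not pass the filter on low counts, so no test was made. The part of interferon gamma in the values of cKO 3 was not tested. Ifnk, the interferon kappa gene, which is made by keratinocytes, had 8, 0 and 2 counts in the controls and 12, 12 and 12 counts in the cKO. For Ifnk all cKO libraries were above all controls, including cKO 2, with a log2 fold change of 1.82 (SE 0.85; edgeR adjusted p = 0.949). The 6 receptor genes differed little, with log2 fold changes from -0.33 for Ifnlr1 (SE 0.30) to 0.20 for Il10rb (SE 0.13). In edgeR 0 of 6 were at an unadjusted p under 0.05, against 3.38% of all genes tested higher and 1.95% lower.

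**Figure D5:**
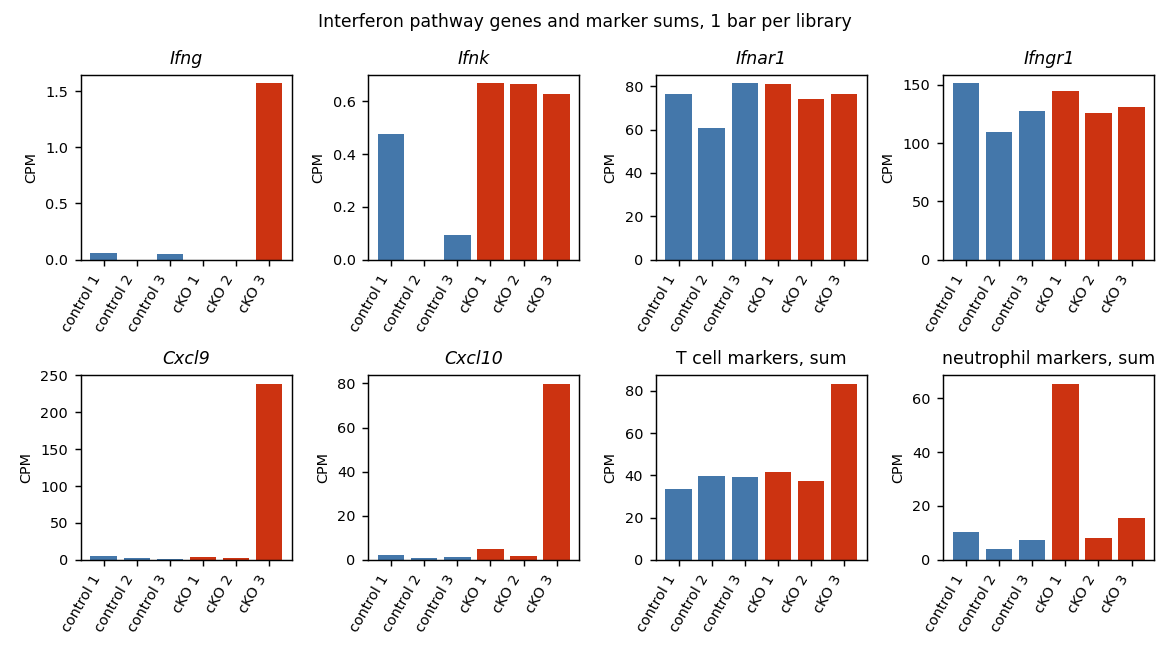
CPM per library (1 bar each, controls blue, cKO red) of interferon ligands, receptors and the chemokines Cxcl9 and Cxcl10, and the summed CPM of T cell and neutrophil markers. Ifng, Cxcl9, Cxcl10 and the T cell sum are highest in cKO 3, the neutrophil sum is highest in cKO 1, and the receptors Ifnar1 and Ifngr1 are similar in all 6.

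Downstream of the receptors, the inhibitors Socs1 and Socs3 had log2 fold changes of 0.47 (SE 0.43) and 0.48 (SE 0.33), with Socs1 highest in cKO 3 and Socs3 in cKO 1, and Jak2 had one of 0.19 (SE 0.20). Of 15 tested genes for nucleic acid sensing upstream of interferon, 3 were higher at an unadjusted p under 0.05 in edgeR (against 3.38% of all genes tested). These were Samhd1, which breaks down deoxynucleotide triphosphates (0.96, SE 0.37), Sting1, the adaptor of cytosolic DNA sensing (0.75, SE 0.30), and Tlr9, a DNA receptor of endosomes (1.096, SE 0.45). Sting1 was at 16.5, 9.95 and 14.0 CPM in the controls and at 25.8, 14.1 and 28.2 CPM in the cKO, high in the same 2 ears as the Oas genes. Irf8, a factor of myeloid cells, was at 55.1 CPM in cKO 3 and at 12.2 to 21.8 CPM in the other libraries. Of these lists 0 genes passed edgeR or DESeq2 with all libraries.

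Chemokines and other targets of interferon gamma were highest in cKO 3 for 9 of 10 genes, against 13% of all genes tested. Cxcl9, which draws activated T cells, was at 5.07, 1.91 and 1.70 CPM in the controls and at 3.51, 2.22 and 238.8 CPM in the cKO. Its fitted log2 fold change of 4.84 had an SE of 1.74 and an edgeR adjusted p of 0.857, and cKO 1 and cKO 2 lay within the controls. Cxcl10 was at 79.9 CPM in cKO 3 and also exceeded the controls in cKO 1. Nlrc5, the activator of MHC class I genes, was at 17.8, 17.01 and 18.2 CPM in the controls and at 32.1, 20.6 and 79.5 CPM in the cKO. For this gene the groups did not overlap, and the log2 fold change was 1.32 (SE 0.44; edgeR adjusted p = 0.843). Tap1, the peptide transporter of antigen presentation, was at 206 CPM in cKO 3 and at 32.8 to 56.6 CPM in the others. In this list 8 genes were tested, and edgeR gave 6 of them a higher level in the cKO at an unadjusted p under 0.05 (against 3.38% of all genes tested). By adjusted p 0 passed edgeR, nor DESeq2, which gave no p-value for Cxcl9 and Gbp4. Without cKO 2, a setting added after seeing the data, DESeq2 called 4 genes over all 5 pathway lists. Over the 30171 genes fitted it then called 127 higher and 12 lower.

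Markers of some immune cells were also highest in cKO 3 or cKO 1. The summed level of 10 T cell markers was 33.5 to 39.6 CPM in the controls and 41.5, 37.4 and 83.4 CPM in cKO 1 to 3. The highest library was cKO 3 for 10 of 10 (against 13% of all genes tested). The defining markers Cd3e, Cd3g and Cd3d were at 8.85, 11.3 and 5.29 CPM in cKO 3, with highest values of 5.24, 9.79 and 2.80 CPM elsewhere. Their log2 fold changes were 0.09 (SE 0.52), -0.30 (SE 0.41) and 0.13 (SE 0.56). Of 9 T cell markers tested, 1 was higher at an unadjusted p under 0.05 in edgeR (against 3.38% of all genes tested). This was Trbc2, with all cKO above all controls (0.78, SE 0.20; edgeR adjusted p = 0.650). Natural killer cell markers summed to 2.68 to 3.73 CPM in the controls and to 2.62, 0.888 and 8.33 CPM in the cKO. The highest library was cKO 3 for 6 of 6 (against 13% of all genes tested), and their defining gene Ncr1 had 20 counts in cKO 3 and 0 to 2 in the others. Only 1 of these 6 genes passed the filter on low counts, Prf1, with a log2 fold change of -0.38 (SE 0.54). Dendritic and Langerhans cell markers summed to 792 CPM in cKO 3 and to 305 to 380.1 CPM in the other libraries. The sum rose mostly through the MHC class II gene H2-Ab1, itself an interferon gamma target. By gene, cKO 3 was the highest library for 5 of 6 (against 13% of all genes tested). In cKO 3, Flt3, Itgax, Xcr1 and Ccr7 were at 11.2, 28.5, 3.72 and 4.09 CPM. Their highest control values were 7.09, 8.20, 1.75 and 1.61 CPM. Cd207, the Langerhans cell marker of that list, was at 13.2, 19.1 and 14.1 CPM in the controls and at 7.86, 8.33 and 15.9 CPM in the cKO, below all controls in cKO 1 and cKO 2 and within them in cKO 3. Macrophage markers summed to 740, 358 and 699 CPM in the controls and to 901, 600 and 715 CPM in the cKO, so that the sum of cKO 3 lay within the controls. By gene, cKO 1, cKO 2 and cKO 3 were above every control for 6, 0 and 4 of the 7. The shares over all genes tested were 21.6%, 17.6% and 19.9%. B cell markers summed to 1.19 to 2.22 CPM in the controls and 1.62 to 2.83 CPM in the cKO. In cKO 1 the neutrophil markers summed to 65.4 CPM, against 3.92 to 15.7 CPM in the others, and cKO 1 was highest for 4 of 6 (against 13.8% of all genes tested). There Csf3r was at 41.7 CPM and Cxcr2 at 19.95 CPM, while the defining marker Ly6g had 0 counts in every cKO library. Plasmacytoid dendritic cells, a main source of interferon alpha, were followed by Siglech, which was at 2.46 to 3.01 CPM in the cKO and 1.598 to 4.53 CPM in the controls. Ccr9 was at 1.998 to 3.19 and 2.08 to 2.32 CPM. The other markers of this list went different ways. Ly6d was at 735 to 1163 CPM in the controls and at 1219, 938 and 1383 CPM in cKO 1 to 3. Cox6a2 was lowest in cKO 3, at 31.8 CPM against 47.3 to 71.5 CPM elsewhere, and Klk1 had 2 counts in cKO 3 and 0 elsewhere. Melanocyte markers were higher in every cKO library, at 162 to 246 CPM against 41.5 to 58.6 CPM, also in cKO 2. The part of these cells in the interferon-stimulated genes was not tested.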

How the data were processed

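RNA from ear skin was taken with TRIzol and made into libraries with a NEBNext Ultra kit, per the labels' protocols. The submitters' processing notes list HISAT2, HTSeq and mm10; their versions, the strand setting and other parameters are not given in the sources used here. Deposited values are raw counts per gene in each library, FPKM values, a normalized mean count (a signal) per group, log2 fold changes, p-values and adjusted p-values, made by the authors, per the file headers; the test used is not named.

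Libraries were grouped by genotype (3 control, 3 cKO). The filter filterByExpr left 17318 genes. After TMM scaling, edgeR 4.0.16 (R 4.3.3) gave a two-sided quasi-likelihood test, robust and without covariates. Its p-values were adjusted by Benjamini-Hochberg over the 17318 genes, with 0.05 as threshold. Dividing the fitted log2 fold change by the square root of F gave its SE. DESeq2 1.42.0, limma 3.58.1 (voom, and limma-trend on FPKM), other scalings and filters, a replicate block and leaving out libraries were alternatives. DESeq2 gave no p-value and no adjusted p for 4 members: Igtp, Iigp1, Gbp2 and Gbp6. The pairing of replicate numbers was checked by the correlation of their deviations from the group means. Permutation tests used log2 CPM with a prior count of 2. The script was tested on simulated counts of 17318 genes for cKO against control. There edgeR called 40% of the genes changed by 2-fold and 88% of those changed by 4-fold, and 15 of its 127 calls were genes left unchanged; for DESeq2 these were 44 of 171.

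Members and lists were chosen with earlier results of these data known. All members could be named; values in every library were given for the 3 members of each role with the smallest p and the most abundant one, and for others where they show the pattern. Up to 4 genes of each pathway list were named by smallest p, with Ifnb1, Ifng, Ifnk, Cxcl9, Cxcl10 and defining markers; 1 further pathway gene is not reported here. Cgas and Sting1 were matched by older symbols. Promoters are from RefSeq.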

Additional observations from a re-analysis of the deposited data

How the results depend on the processing

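By adjusted p, edgeR and limma called 0 members under every planned setting and DESeq2 called 2, and all members tested kept a log2 fold change above 0 under each planned setting that used all 6 libraries. Under scaling by total count or upper quartile the median over all genes moved by less than 0.1 on the log2 scale. The median of the members ranged from 0.28 to 1.56 with single libraries left out and was 0.15 without control 2 and cKO 3, a setting chosen after seeing the data. With single libraries left out, log2 fold changes ran from -0.052 (without control 2) to 0.72 for Samd9l and, with the lowest value without cKO 3, from -0.13 to 0.998 for Ifit3, -0.087 to 3.04 for Iigp1, -0.073 to 1.71 for Gbp3 and -0.013 to 0.22 for Ifi35. Members at an unadjusted p under 0.05 numbered 25 in edgeR, 12 with no filter, 11 in limma-voom, 13 with quality weights, 7 in limma-trend with 1 added to FPKM and 6 with 0.1 added (44 members tested), 3 to 37 with 1 library left out and 1 without control 2 and cKO 3. Genes called over the whole table numbered 3 in edgeR, 25 with no filter, 82 in DESeq2, 0 in limma-voom and both limma-trend fits, 26 with quality weights and 0 to 4 with 1 library left out. Chosen after seeing the data, DESeq2 with 1 library left out called 0 to 9 members, and the members whose cKO all lay above the controls numbered 4 to 32, from 4 without cKO 1 or cKO 3 (against 7.61% and 9.24% of all genes) to 20 without control 1 (14%) and 32 without cKO 2 (11.3%). With the replicate number as a block edgeR called 12 genes, 0 of them members, 25 members were at an unadjusted p under 0.05, and the median was 1.046; same-numbered libraries deviated together for number 1 alone (r across genes 0.216, -0.0431 and -0.0380), which falls short of a pairing for all 3 numbers. The cause of these shifts was not tested. Levels under about 1 CPM rest on few counts, which limits Oas1g, Ifi44, Ifng and Ifnk most.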
